A study of Mus musculus with 9 samples.

Results

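Regulators of G protein signalling (RGS proteins) were examined in splenic follicular B cells, the naive B cells that circulate between blood and lymphoid follicles. The genes are Rgs1, Rgs2, Rgs3, Rgs10, Rgs13, Rgs14, Rgs16, Rgs18 and Rgs19, which are 9 of the 22180 genes named on the arrays. They were listed by name with earlier results of these data in view, and their probe sets were chosen by measured signal: where a gene had several, the one with the highest mean log2 signal over the 9 arrays stood for it. That mean was 8.81 for the Rgs2 probe set taken and 7.36 for the one passed over, values given without a test. Each gene of the list had a probe set annotated to it alone, and only Rgs2 had more than 1.

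The comparison was between 3 genotypes with 3 arrays each. The ε/ε mice carried Ighε/ε VJk5, the γ1/γ1 mice Ighγ1/γ1 VJk5 and the wild-type mice Ighwt VJk5. The ε and γ1 alleles are named after the constant regions of IgE and IgG1, and every group, the wild-type included, had VJk5 in its genotype label. All mice were 6 to 12 weeks old and were kept free of specific pathogens. How the alleles were built and what VJk5 is are not stated in the labels. The replicates are called independent without being called separate animals, so each p-value speaks of the spread among these arrays alone, which may be technical.

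A receptor coupled to a G protein acts by loading its α subunit with GTP, and the signal lasts until that GTP is hydrolysed. RGS proteins bind the active α subunit and speed that hydrolysis, so they shorten the signal. In B cells such receptors sense chemokines, sphingosine phosphate and oxysterols and set where in the spleen and lymph nodes the cells go. Rgs1 is known in B cells as a brake on migration toward chemokines, and its RNA is known to rise when B cells are activated.

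The arrays were not all alike, and ε/ε replicate 1 stood apart. For 18 macrophage markers the mean log2 signal reached 6.30, 4.46 and 3.97 on the arrays of ε/ε replicates 1, 2 and 3, against 3.66 to 3.76 in γ1/γ1 and 3.66 to 3.71 in wild-type. In ε/ε replicates 1, 2 and 3 the markers above the array median numbered 18, 13 and 12, against 8 or 9 in γ1/γ1 and 8 to 10 in wild-type. Xist, the RNA that silences an X chromosome in females, was low in ε/ε replicate 1 (5.25) and γ1/γ1 replicate 1 (4.53) and read 10.37 to 10.79 elsewhere. Y-linked Eif2s3y read 7.40 and 7.99 on those arrays, 5.40 in ε/ε replicate 2 and 2.75 to 3.64 on the other 6, so the 7 arrays of high Xist were not alike in it. The labels give no sex. All 13 B cell markers measured lay above the array median on every array. That criterion cannot exclude other cells or tell follicular B cells from other B cells. All 18 macrophage markers met it in ε/ε replicate 1.

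Rgs1 was higher in ε/ε follicular B cells than in both other genotypes. Its log2 signal read 7.10, 5.34 and 5.26 in ε/ε replicates 1, 2 and 3, 3.10, 3.74 and 3.49 in γ1/γ1 replicates 1, 2 and 3, and 3.46, 3.44 and 3.25 in wild-type replicates 1, 2 and 3. Every ε/ε array lay above every other array, and replicate 1 was the highest. All ε/ε readings of a gene lay above all wild-type readings for 11.8% of the genes tested, and above all γ1/γ1 readings for 9.86%. The γ1/γ1 and wild-type arrays overlapped. All 3 ε/ε readings were above the median of their array, which ranged from 3.53 to 3.69 over the arrays, as was 1 of the γ1/γ1 readings and 0 of the wild-type ones. No fold is given for that reason, since background near the median lessens a difference in log2 signal. In such bulk samples, more cells with Rgs1 RNA and more of that RNA per cell cannot be told apart.

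The rise of Rgs1 was larger than the spread between arrays. In the limma fit of all 12170 genes tested, Rgs1 rose by 2.51 in ε/ε over wild-type (SE 0.42, 95% interval 1.59 to 3.44, adjusted p = 0.00997) and by 2.45 over γ1/γ1 (SE 0.42, interval 1.53 to 3.38, adjusted p = 0.0160). In γ1/γ1 it differed from wild-type by 0.06 (SE 0.42, adjusted p = 0.987), with an interval of -0.86 to 0.99. These contrasts share arrays, so they are not separate evidence. Rgs1 had been seen to pass before the list was made, and it met the filter on low signal through its ε/ε readings, so the call is a description and no independent support. With all 22180 genes in the fit and no filter, the adjusted p was 0.0178 over wild-type and 0.0286 over γ1/γ1.

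Leaving out ε/ε replicate 1, the array with the highest macrophage markers and low Xist, made both the Rgs1 difference and its error smaller. It was then 1.91 over wild-type (SE 0.20, adjusted p = 0.00360) and 1.85 over γ1/γ1 (SE 0.20, adjusted p = 0.00602), under the same filter. Without a filter, an alternative added after seeing the data, these adjusted p were 0.00680 and 0.0117. On the 7 arrays of high Xist alone the difference was 1.91 (limma adjusted p = 0.00299) and 1.68 (adjusted p = 0.0104). Also leaving out ε/ε replicate 2, without a filter, left 6 arrays with 1 of ε/ε, assumed to vary like the other groups. In this fit, likewise added after seeing the data, the Rgs1 difference was 1.87 over wild-type (adjusted p = 0.0564) and 1.64 over γ1/γ1 (adjusted p = 0.0852), and neither passed. The macrophage markers of ε/ε replicates 2 and 3 were also above those of the other genotypes, and their part in the Rgs1 result was not tested. The difference over γ1/γ1 missed the threshold without γ1/γ1 replicate 1 (2.28, adjusted p = 0.0662), without γ1/γ1 replicate 3 (2.48, adjusted p = 0.0598) and in a fit of only the 6 arrays compared (2.45, adjusted p = 0.0876). Over the 20 alternatives other than the added ones its adjusted p ranged from 0.00602 to 0.0876, and that of the difference over wild-type from 0.00299 to 0.0477.

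Of the 9 RGS genes, 7 passed the filter on low signal, which asked for a reading above the array median on at least 3 of the 9 arrays, and Rgs16 and Rgs18 did not. Between ε/ε and wild-type 1 gene, Rgs1, passed at an adjusted p under 0.05 and was higher, where 2.33% of all genes tested were called higher, 4.02% lower and 6.34% in either direction. Between ε/ε and γ1/γ1 it was again Rgs1 alone, where 1.02% of all genes were called higher, 1.64% lower and 2.66% in either direction. In limma's joint test of any genotype difference 4.11% of all genes passed, and of the 7 again Rgs1 (adjusted p = 0.0138). For γ1/γ1 against wild-type 0 of the 7 passed in limma and 0 had an unadjusted p under 0.05, where 0.0411% of all genes were called. Of all genes tested, 24.8% had an unadjusted p under 0.05 between ε/ε and wild-type, 6.82% between γ1/γ1 and wild-type and 19.9% between ε/ε and γ1/γ1, shares against which the counts of lists at that p are to be read. The median difference of the 7 was -0.03 between ε/ε and wild-type, 0.22 between γ1/γ1 and wild-type and -0.15 between ε/ε and γ1/γ1. Over all genes tested the medians of these log2 differences were -0.01, -0.02 and 0.00, in the same order.

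**Figure D1:**
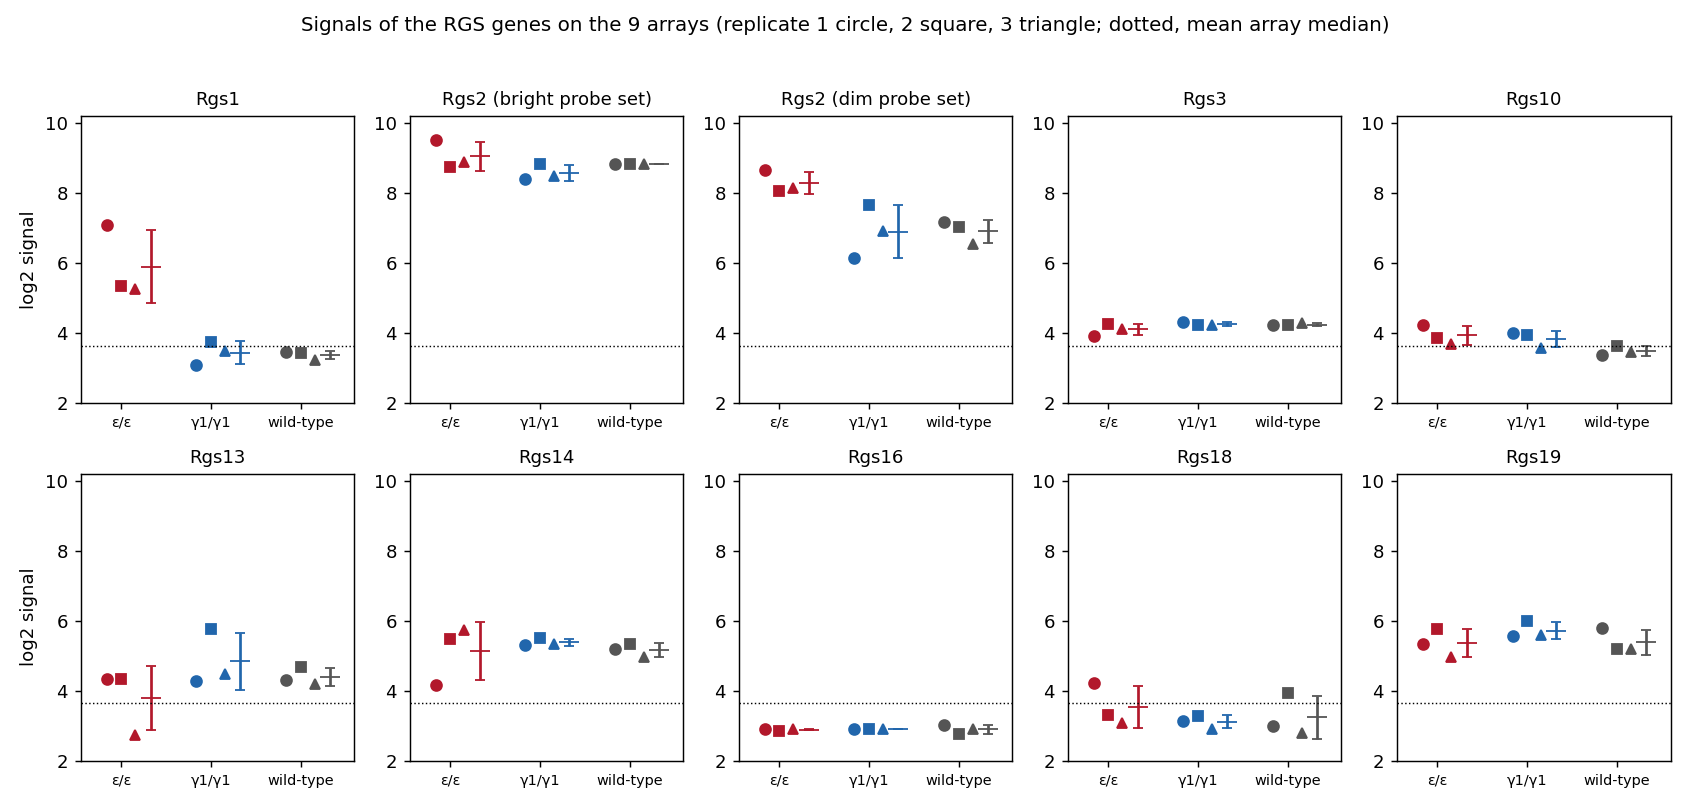
Log2 signal (vertical axes) of each RGS gene on the 9 arrays, with both Rgs2 probe sets; points are arrays by genotype and replicate, the bar beside them is the mean ± SD (n = 3), and the dotted line is the mean of the array medians. The 3 ε/ε readings of Rgs1, at 5.26 to 7.10, lie above all 6 others, while Rgs16 lies below the dotted line on every array.

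Rgs2 and Rgs13 lie close to Rgs1 in the genome. In the order of protein-coding genes of the mouse GRCm38.p6 assembly, Rgs2, Rgs13, Rgs1, Rgs21 and Rgs18 follow one another on chromosome 1, and Rgs16 lies elsewhere on it. Promoter windows of 250 bases before to 50 after the start were found for 6 of the 9 genes in a RefSeq table of that assembly. Rgs1, Rgs14 and Rgs18 had no window there, so no comparison with the promoter of Rgs1 could be made. The windows of its neighbours Rgs2 (chr1:144004100-144004399, minus strand) and Rgs13 (chr1:144177323-144177622, minus strand) are shown, 5′ to 3′ on the strand of the gene. Neither neighbour passed the test that Rgs1 passed. Capitals mark the letters TGACG, the core of the cAMP response element, searched on both strands.
Rgs2: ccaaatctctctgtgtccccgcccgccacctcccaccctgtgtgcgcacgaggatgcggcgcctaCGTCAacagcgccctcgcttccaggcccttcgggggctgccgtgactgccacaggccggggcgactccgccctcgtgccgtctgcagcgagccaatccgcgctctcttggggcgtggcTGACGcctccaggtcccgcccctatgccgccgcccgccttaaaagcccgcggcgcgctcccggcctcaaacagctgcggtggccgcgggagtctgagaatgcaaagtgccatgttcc
Rgs13: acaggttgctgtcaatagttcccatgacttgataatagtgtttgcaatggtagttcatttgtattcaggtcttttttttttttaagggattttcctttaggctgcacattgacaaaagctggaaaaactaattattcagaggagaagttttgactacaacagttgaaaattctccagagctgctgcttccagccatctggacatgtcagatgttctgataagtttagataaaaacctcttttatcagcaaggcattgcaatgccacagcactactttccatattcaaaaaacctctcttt
The windows differ in base content. That of Rgs2 is 70.0% G and C with 33 CpG dinucleotides, and that of Rgs13 is 36.7% G and C with 0, where the median of all windows was 52.7% with 7. This core occurs in 2 places in the Rgs2 window, 1 on each strand, and in 0 places in that of Rgs13. Of all 32851 windows of this length, 20.8% hold it. The AP-1 motif TGANTCA, searched on both strands, was in neither window and in 7.81% of all.

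Rgs2, which acts mainly on α subunits of the Gq kind, gave different answers with its probe sets. Probe set 17548932, the brighter and so the one that stood for the gene, read 9.52, 8.75 and 8.87 in ε/ε replicates 1, 2 and 3, 8.40, 8.83 and 8.47 in γ1/γ1, and 8.83 on each wild-type array. The groups overlapped. The difference was 0.22 between ε/ε and wild-type (SE 0.21, interval -0.24 to 0.68, limma adjusted p = 0.544), 0.48 between ε/ε and γ1/γ1 (SE 0.21, adjusted p = 0.233) and -0.26 between γ1/γ1 and wild-type (SE 0.21, adjusted p = 0.839). Without ε/ε replicate 1 the difference from wild-type was -0.02 and that from γ1/γ1 0.24.

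The wild-type readings of this probe set were the same to every deposited digit, and so was γ1/γ1 replicate 2. They therefore have an SD of 0, which says nothing of how alike the cells were. These readings also enter the limma SE of 0.21, which may understate the spread. The shared value was also the median of the 9 arrays. Among the RGS genes, Rgs16 shared a value on 4 arrays, Rgs3 on 3 and Rgs13 and Rgs14 on 2 each, each time at the median of the 9. Rgs1, Rgs10, Rgs18, Rgs19 and the other Rgs2 probe set had no shared value. Such sharing was common on these arrays, with 51.9% of the genes tested having at least 2 equal readings.

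The dimmer Rgs2 probe set, 17227764, separated ε/ε from the other genotypes. It read 8.64, 8.05 and 8.14 in ε/ε replicates 1, 2 and 3, 6.13, 7.66 and 6.90 in γ1/γ1 replicates 1, 2 and 3, and 7.17, 7.02 and 6.54 in wild-type replicates 1, 2 and 3. Each ε/ε reading lay above the 6 others. In a limma fit of 22340 probe sets the difference was 1.36 over wild-type (SE 0.37, adjusted p = 0.0720) and 1.38 over γ1/γ1 (SE 0.37, adjusted p = 0.0865), so neither passed. It was -0.01 between γ1/γ1 and wild-type (adjusted p = 0.998). The mean of both probe sets differed by 0.79 between ε/ε and wild-type (adjusted p = 0.0900) and by 0.93 between ε/ε and γ1/γ1 (adjusted p = 0.0839).

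Rgs13, known from germinal centre B cells and mast cells, varied most among arrays of the same genotype. It read 4.33, 4.33 and 2.75 in ε/ε replicates 1, 2 and 3, 4.28, 5.78 and 4.48 in γ1/γ1, and 4.30, 4.68 and 4.20 in wild-type. The low reading was ε/ε replicate 3 and the high one γ1/γ1 replicate 2, and the groups overlapped. The difference was -1.04 between ε/ε and γ1/γ1 (SE 0.47, interval -2.08 to 0.00, limma adjusted p = 0.252) and -0.59 between ε/ε and wild-type (SE 0.47, adjusted p = 0.477). Without ε/ε replicate 3 these were -0.51 and -0.06. Its pooled SD within genotypes, 0.72, was at percentile 99.0 of the genes tested, where the median gene had 0.24. Of 7 germinal centre markers tested, Rgs13 included, 0 passed in limma in any contrast, and 1 had an unadjusted p under 0.05 between ε/ε and wild-type, 0 between γ1/γ1 and wild-type and 3 between ε/ε and γ1/γ1, where 24.8%, 6.82% and 19.9% of all genes had one.

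Rgs18 and Rgs16 were below the array median on most arrays and were not tested. Rgs18, known from platelets and their precursors, read 4.22, 3.31 and 3.07 in ε/ε replicates 1, 2 and 3, 3.15, 3.28 and 2.91 in γ1/γ1, and 3.00, 3.94 and 2.79 in wild-type. It was above the array median only in ε/ε replicate 1 and wild-type replicate 2. The mean of 8 platelet markers read 3.44 to 3.69 in ε/ε, 3.48 to 3.53 in γ1/γ1 and 3.34 to 3.69 in wild-type, and of its 3 members tested 0 passed in limma or had an unadjusted p under 0.05 in any contrast. Rgs16, which activated lymphocytes are known to switch on, read 2.86 to 2.92 in ε/ε, 2.90 to 2.92 in γ1/γ1 and 2.76 to 3.03 in wild-type. It lay below the median of the array on all 9, so no difference was measurable with this probe set.

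Rgs3, whose long forms carry further binding domains beside the RGS domain, was the most even of the RGS genes tested. It read 3.93, 4.26 and 4.12 in ε/ε replicates 1, 2 and 3, 4.31, 4.22 and 4.22 in γ1/γ1, and 4.23, 4.22 and 4.28 in wild-type, with its lowest reading in ε/ε replicate 1. In ε/ε it differed from wild-type by -0.14 (SE 0.13, interval -0.43 to 0.15, limma adjusted p = 0.548). Its pooled SD of 0.10 was at percentile 6.07 of the genes tested, with the same value on 3 arrays, which may understate the spread.

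Rgs10 and Rgs14 belong to a branch of the family that acts on α subunits of the Gi kind, and Rgs14 also binds inactive α subunits through a separate motif. Rgs10 read 4.24, 3.87 and 3.69 in ε/ε replicates 1, 2 and 3, 3.99, 3.94 and 3.56 in γ1/γ1, and 3.39, 3.64 and 3.45 in wild-type. The ε/ε readings all lay above the wild-type ones, as they did for 11.8% of all genes tested, and the wild-type readings did not exceed the array median. The Rgs10 difference was 0.44 between ε/ε and wild-type (SE 0.18, interval 0.04 to 0.85, limma adjusted p = 0.170) and 0.34 between γ1/γ1 and wild-type (SE 0.18, adjusted p = 0.758). Without ε/ε replicate 1 the ε/ε difference was 0.29 (adjusted p = 0.386).

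Rgs14 read 4.18, 5.49 and 5.73 in ε/ε replicates 1, 2 and 3, 5.30, 5.50 and 5.34 in γ1/γ1, and 5.19, 5.34 and 4.96 in wild-type. ε/ε replicate 1 was the lowest of all arrays, and the other ε/ε arrays were above every wild-type array. It differed in ε/ε from wild-type by -0.03 (SE 0.33, interval -0.77 to 0.71, limma adjusted p = 0.969), and without ε/ε replicate 1 by 0.45 (SE 0.16, adjusted p = 0.158). Under the 20 alternatives the Rgs14 difference between ε/ε and wild-type ranged from -0.33 to 0.45, and its sign changed under 6 of them. Its direction was therefore not settled.

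Rgs19, also called GAIP, acts on α subunits of the Gi and Gz kinds. It read 5.33, 5.76 and 4.96 in ε/ε replicates 1, 2 and 3, 5.56, 5.99 and 5.58 in γ1/γ1, and 5.79, 5.18 and 5.19 in wild-type, and the groups overlapped. The difference was -0.04 between ε/ε and wild-type (SE 0.24, interval -0.57 to 0.50, limma adjusted p = 0.947) and -0.36 between ε/ε and γ1/γ1 (SE 0.24, adjusted p = 0.432). From wild-type, γ1/γ1 differed by 0.33 (SE 0.24, adjusted p = 0.829).

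**Figure D2:**
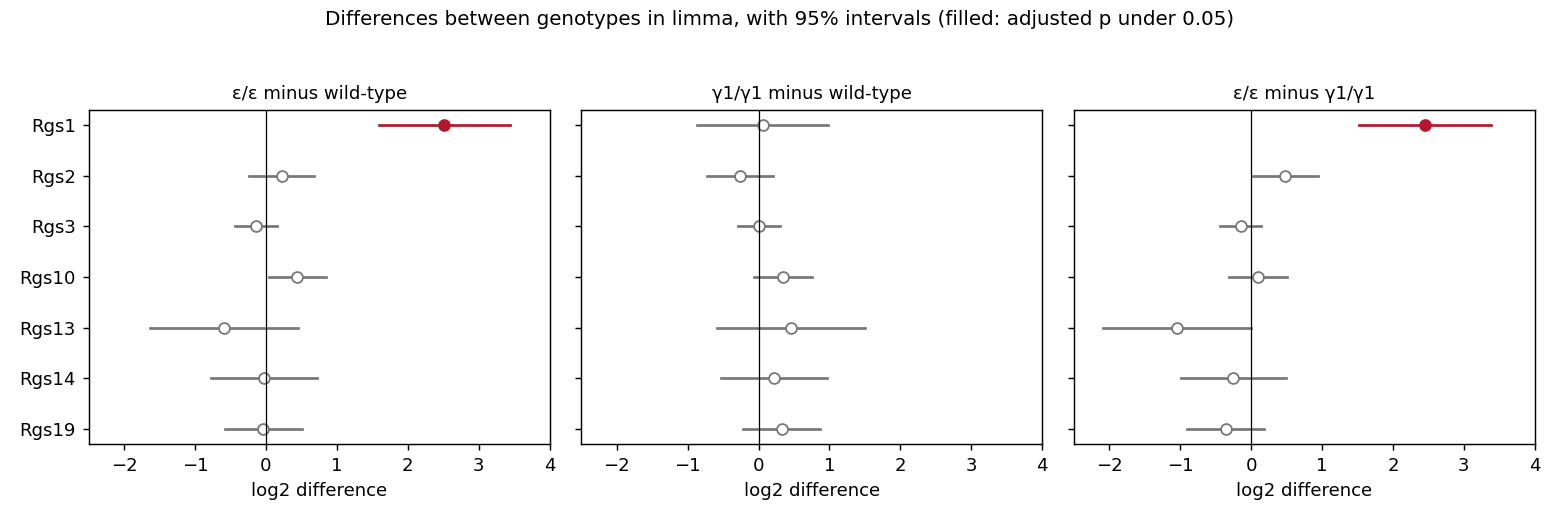
Log2 differences (horizontal axes) of the 7 RGS genes tested in limma, 1 panel for each pair of genotypes; points are differences and lines are 95% intervals, filled where the adjusted p over all genes was under 0.05. The 2 filled points are Rgs1, at 2.51 in the panel against wild-type and 2.45 in that against γ1/γ1, and the intervals of Rgs3 are the narrowest.

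ε/ε replicate 1 held an extreme reading for 6 of the RGS genes. It was the highest of the 9 arrays for Rgs1, for both Rgs2 probe sets, Rgs10 and Rgs18, and the lowest for Rgs3 and Rgs14. The same array had the highest macrophage and immediate-early gene means, and the part of these in the RGS readings was not tested. Of the immediate-early genes, the quick first response of stimulated lymphocytes, the mean of 28 read 6.49, 5.95 and 6.17 in ε/ε replicates 1, 2 and 3, against 5.51 to 5.91 in γ1/γ1 and 5.38 to 5.71 in wild-type. Of 26 tested, 9 rose and 0 fell in ε/ε over wild-type, with a median difference of 0.61, where 2.33% of all genes were called higher and 4.02% lower. Jun (2.37, limma adjusted p = 0.00745), Junb (1.77, adjusted p = 0.0176), Dusp1 (1.68, adjusted p = 0.00607) and Fos (1.67, adjusted p = 0.0479) rose the furthest. Egr2 (-0.76, adjusted p = 0.0504), Klf2 (-0.25) and Egr3 (-0.21) were lower and did not pass. The mean of 15 marginal zone B cell markers was 5.61 to 5.78 in ε/ε, 5.13 to 5.26 in γ1/γ1 and 4.79 to 4.91 in wild-type. Of these markers 7 of 13 tested rose and 0 fell in ε/ε over wild-type, where 2.33% of all genes were called higher and 4.02% lower. Il9r (2.82, adjusted p = 0.00152), Ackr3 (2.28, adjusted p = 0.00127), Myof (1.68, adjusted p = 0.00378) and Hes1 (1.17, adjusted p = 0.00439) rose the furthest. The ε/ε mean of Il9r was 8.66, against 8.81 for γ1/γ1 and 5.84 for wild-type, and it was the 1 marker of the list that also rose in γ1/γ1 over wild-type, by 2.98 (adjusted p = 0.0122). The other 6 did not pass, Cd1d1 at -0.17 and Fcrl5 at -0.11 among them. The part of marginal zone B cells in the RGS readings was not tested.

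The genes whose signals ran most like those of Rgs1 over the 9 arrays were Gla, a lysosomal galactosidase (Pearson's r = 0.98), Cd69, an early activation marker of lymphocytes (r = 0.98), and Cln3, a lysosomal membrane protein (r = 0.97). These r values are descriptions, with no p: they were the 3 highest of 12169 genes, and the 9 points share their genotypes and ε/ε replicate 1. Cd69 read 8.71, 8.01 and 8.14 in ε/ε replicates 1, 2 and 3, against 7.35 to 7.70 in γ1/γ1 and 7.31 to 7.65 in wild-type, so its ε/ε arrays were apart from the rest as those of Rgs1 were. For Rgs10 the nearest genes were Hspa1b (r = 0.94), Junos (r = 0.93) and Hspa1a (r = 0.90). Hspa1a and Hspa1b encode near-identical heat shock proteins, so their signals are hard to tell apart. For the brighter Rgs2 probe set they were Psmd7, a proteasome subunit, Erlin1 and Snx3 (r = 0.97, 0.97 and 0.96). For Rgs3 they were the phosphatase gene Ppm1a, Commd3 and Fam228a (each r = 0.96), and for Rgs13 Mtbp, Dmac2 and Mtmr12 (r = 0.98, 0.98 and 0.97). For Rgs14 they were Tagln, Gusb and Brf1 (r = 0.97, 0.97 and 0.96), and for Rgs19 1110008P14Rik, Bckdha and 4930481A15Rik (r = 0.94, 0.91 and 0.89). None of the nearest genes of any RGS gene was another of the 9.

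**Figure D3:**
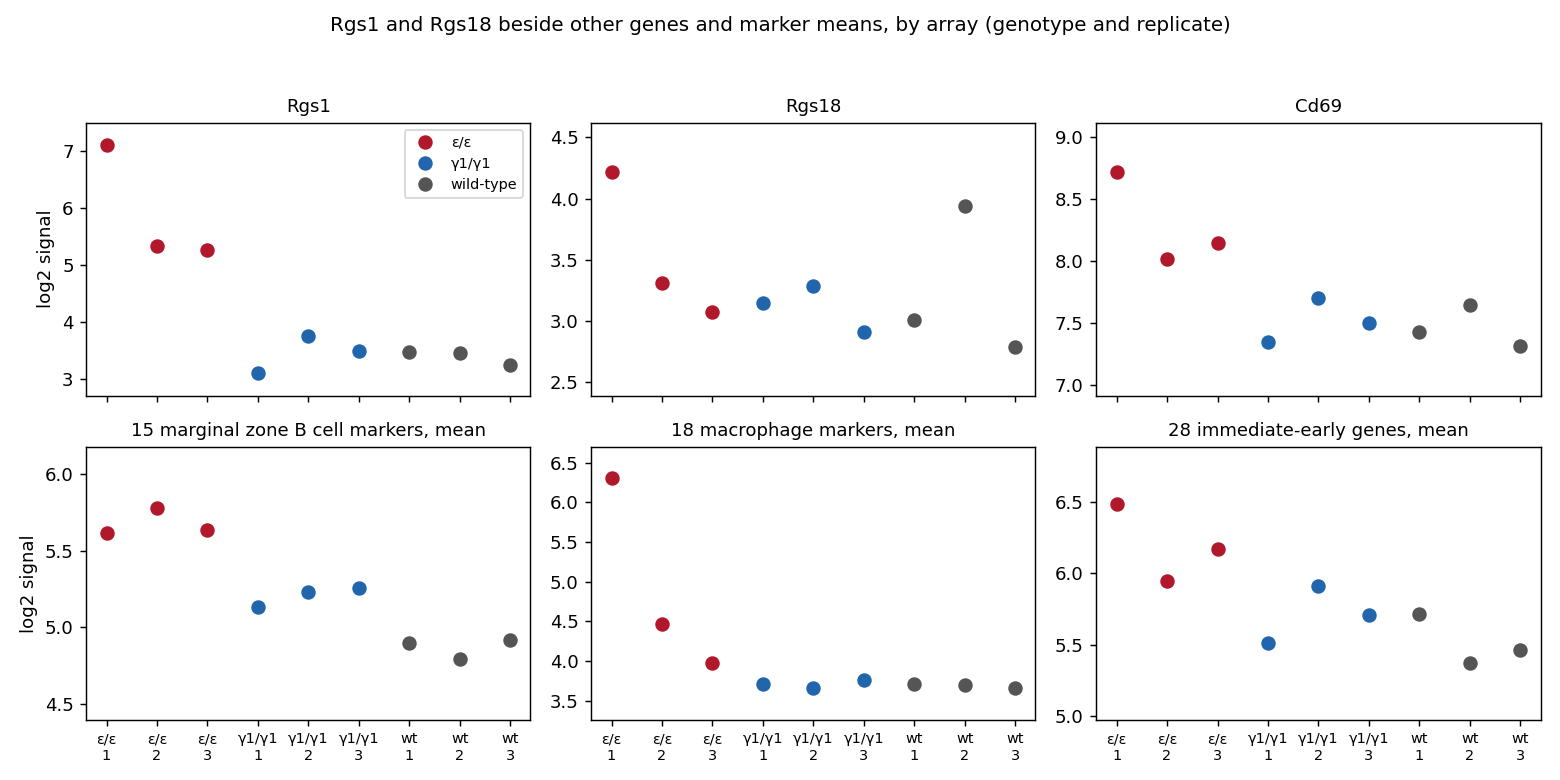
Log2 signal (vertical axes, a scale for each panel that does not start at 0) on each array, by genotype and replicate, of Rgs1, Rgs18 and Cd69 and of the means of 15 marginal zone B cell markers, 18 macrophage markers and 28 immediate-early genes. ε/ε replicate 1 is the highest array in every panel except that of the marginal zone markers, where the 3 ε/ε arrays lie at 5.61 to 5.78, above the other 6.

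The other genes with an RGS domain or bound to RGS proteins held 1 call, a lower level. Of 21 measured, 9 were tested, and between ε/ε and wild-type 0 rose and 1 fell, with a median difference of -0.23. In that contrast 2.33% of all genes were called higher and 4.02% lower. The one that fell was Snx13, a sorting nexin with an RGS domain, by 0.97 (SE 0.18, limma adjusted p = 0.0149). It also fell in ε/ε against γ1/γ1, by 0.89 (SE 0.18, adjusted p = 0.0336). Its ε/ε readings of 6.26 to 6.62 lay below those of γ1/γ1 at 7.09 to 7.68 and wild-type at 7.28 to 7.45. The call against wild-type did not survive leaving out wild-type replicate 2 or 3 (adjusted p as high as 0.0674), and the call against γ1/γ1 was lost under 12 of 20 alternatives (up to 0.121). Rgs21, which lies between Rgs1 and Rgs18, read 2.72 to 3.34 over the 9 arrays and was not tested.

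Among the α subunits on which RGS proteins act, 0 of 10 tested rose and 1 fell between ε/ε and wild-type, with a median difference of 0.27. In that contrast 2.33% of all genes were called higher and 4.02% lower. Gna12 was higher by 1.02 and did not pass (limma adjusted p = 0.0602). Gnai3, a Gi subunit, fell by 0.56 (SE 0.13, limma adjusted p = 0.0365), and this call was lost under 14 of 20 alternatives, quantile normalization and each ε/ε or wild-type array left out among them (adjusted p up to 0.134). Of 12 β and γ subunits 1 rose and 0 fell, with a median of 0.02. This was Gng3, whose γ1/γ1 readings (3.18 to 3.32) and wild-type readings (3.16 to 3.31) all lay below the array medians, so that it met the filter through its 3 ε/ε readings alone. It was higher in ε/ε than in wild-type by 0.71 (SE 0.14, adjusted p = 0.0191, or 0.0236 with no filter), a call that leaving out wild-type replicate 2 or 3 removed (adjusted p as high as 0.0787). Against γ1/γ1 the difference was 0.70 (adjusted p = 0.0336, or 0.0396 with no filter), a call lost under 11 of 18 alternatives (up to 0.105).

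Receptors of the G protein-coupled family listed for B cells moved in both directions in ε/ε. Of 18 tested, 2 rose and 2 fell over wild-type, with a median of 0.03, where 2.33% of all genes were called higher and 4.02% lower. Over γ1/γ1 1 rose and 2 fell, where 1.02% of all genes were called higher and 1.64% lower. Ackr3, the 1 that rose in both, is an atypical receptor that scavenges chemokines rather than signalling through G proteins. It is also among the marginal zone markers. Ackr3 rose over wild-type by 2.28 (SE 0.23, limma adjusted p = 0.00127). Gpr34, a lysophospholipid receptor, rose by 1.59 (SE 0.28, adjusted p = 0.0123), a call lost without wild-type replicate 3 (adjusted p = 0.0528). Its γ1/γ1 readings of 4.70 to 5.53 also lay above those of wild-type at 3.58 to 4.17, without passing. They overlapped the ε/ε readings of 5.10 to 5.98. Ccr6, a chemokine receptor, and P2ry10, also a lysophospholipid receptor, were lower, Ccr6 having dropped by 1.16 (SE 0.20, adjusted p = 0.0108) and P2ry10 having dropped by 0.84 (SE 0.14, adjusted p = 0.00902). The Ccr6 call was lost without wild-type replicate 3 (adjusted p = 0.0508). Against γ1/γ1, Ackr3 rose by 2.03 (adjusted p = 0.00360), and Ccr6 and P2ry10 fell by 1.04 (adjusted p = 0.0260) and 0.78 (adjusted p = 0.0177), calls lost under 8 and 5 of 20 alternatives (up to 0.0954 and 0.0814). Cxcr4 and Cxcr5, the chemokine receptors that Rgs1 is known to restrain, differed in ε/ε from wild-type by -0.16 (adjusted p = 0.677) and 0.69 (adjusted p = 0.121).

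Downstream, 0 of 15 effectors tested rose and 1 fell between ε/ε and wild-type, with a median of -0.06. In that contrast 2.33% of all genes were called higher and 4.02% lower. Rap1b, a small GTPase of adhesion, fell by 1.08 (SE 0.16, limma adjusted p = 0.00558), with ε/ε readings of 8.18 to 8.60, against 8.83 to 9.13 in γ1/γ1 and 9.34 to 9.56 in wild-type. Of 6 receptor kinases and arrestin genes 0 rose and 1 fell, Arrdc3, an arrestin relative, by 1.11 (SE 0.21, adjusted p = 0.0158), which missed the threshold when any 1 of the wild-type replicates was left out (adjusted p up to 0.0631). Of 8 other modulators of α subunits 0 passed in limma, and 1 had an unadjusted p under 0.05; Rasa3 and Gipc1 had differences of -0.60 (adjusted p = 0.195) and 0.42 (adjusted p = 0.208). Of these 7 lists 0 genes passed in limma between γ1/γ1 and wild-type, with 4 of 78 tested at an unadjusted p under 0.05, where 6.82% of all genes had one.

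**Figure D4:**
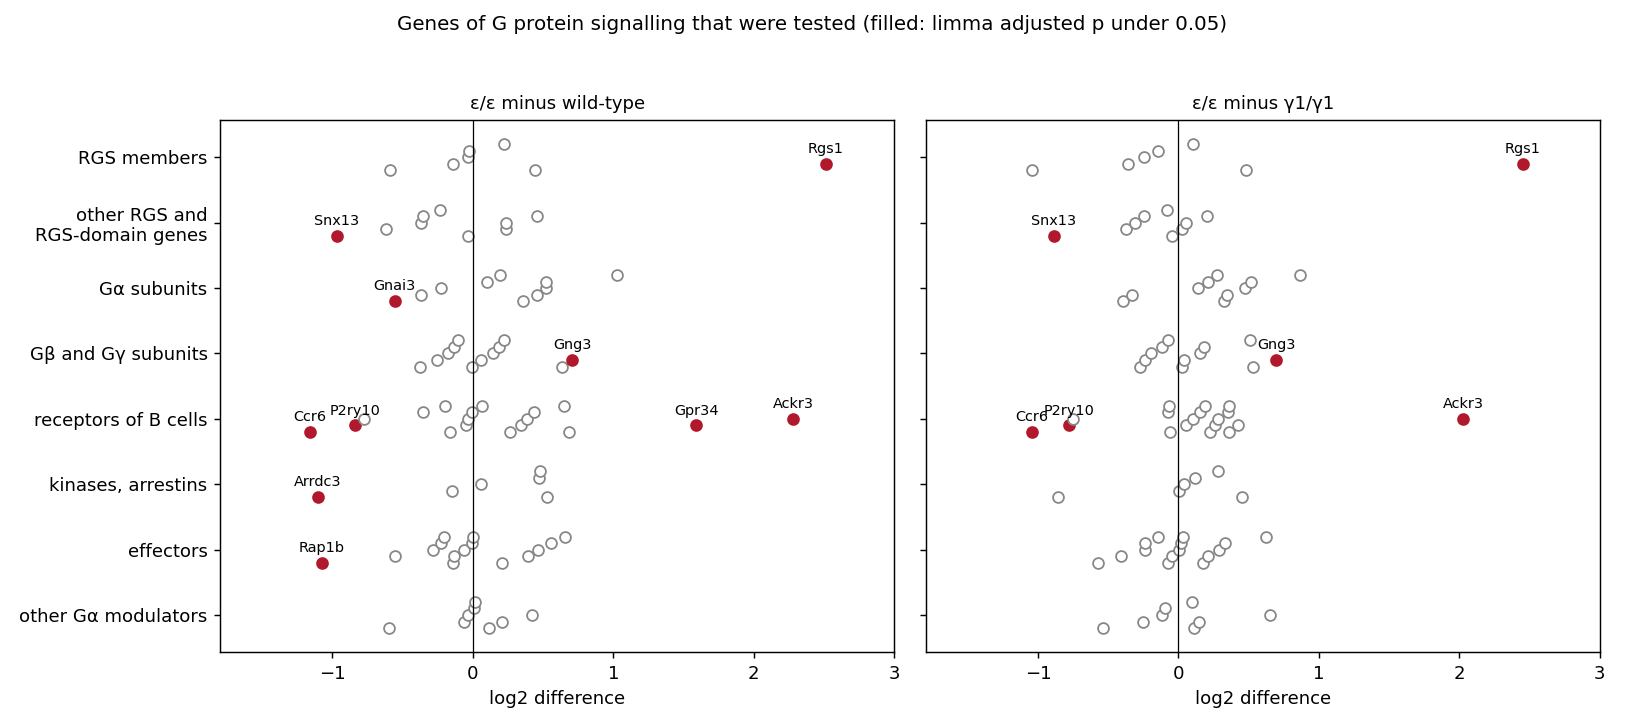
Log2 differences (horizontal axes) of the genes of G protein signalling that were tested, by list, with ε/ε minus wild-type on the left and ε/ε minus γ1/γ1 on the right; each point is a gene, spread vertically within its list for legibility and filled and named where the limma adjusted p was under 0.05. Rgs1 lies at 2.51 and 2.45, apart from the other RGS genes, and Ackr3, Gpr34, Gng3, Ccr6, P2ry10, Arrdc3, Rap1b, Gnai3 and Snx13 are the other genes filled in the left panel.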

How the data were processed

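Arrays of 9 samples of biotin-labelled cDNA, made from 54 to 360 ng of total RNA per the labels' protocols, were analysed. The authors deposited 1 column of log2 signals per array, for 41345 probe sets, and the range of the values gave the log2 scale. The submitters' processing notes name R 3.3.1, while background correction, normalization and probe set summary are not given here. Array number limits precision.

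The platform annotation gave 23521 probe sets a single symbol, 1814 several and 16010 none. The probe set with the highest mean stood for each gene. Of 22180 genes, 12170 were above the array median on at least 3 arrays and were tested in limma 3.58.1 (R 4.3.3) with a mean for each genotype, without covariates, 6 residual degrees of freedom, eBayes and Benjamini-Hochberg adjustment over all genes tested. Adjusted p-values are limma's. Figures used matplotlib 3.10.9.

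Every RGS gene and probe set is named. From each other list, up to 4 that passed with the largest difference were named, or the 2 with the smallest p, and for likeness the 3 genes with the highest r. Genes outside that rule were named after their values were seen, among them Cxcr4, Cxcr5, Rgs21, Cd1d1, Fcrl5, Bcl6, Blk, Eif2s3y and Xist. The equal readings were likewise described after being seen. The RGS genes, lists and alternatives were chosen with earlier results of these data known. The fit was also run on simulated data with normal noise and the same spread in every genotype. Those data had no equal readings or outlying array, so that run does not vouch for the fit on these arrays.

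The 20 alternatives changed the scaling, the filter, the choice of probe set, the variance model, the arrays used, or added the block or a term for low Xist, and 2 more were added after seeing the data.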

Additional observations from a re-analysis of the deposited data

How the results depend on the processing

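Of 411 values of the 21 differences of the tested RGS genes under 20 alternatives, 408 kept their side of the threshold. The 3 that did not were Rgs1 in ε/ε over γ1/γ1, given above. Most of these differences were not called to begin with, so that count says little of stability. The called ones were both of Rgs1, and they passed under 20 of 20 alternatives over wild-type and 17 of 20 over γ1/γ1. The sign of a difference that was not called changed 25 times, and 0 called differences changed sign. Counts over all genes also moved. Between ε/ε and wild-type 772 genes passed, against 424 with only the 6 arrays compared and 186 to 789 with an array left out (512, 186 and 210 without wild-type replicates 1, 2 and 3). Between γ1/γ1 and wild-type 5 passed, against 3 with only arrays of high Xist, 0 with the 6 arrays (974 at an unadjusted p under 0.05) and 0 to 6 with an array left out (0 and 3 without γ1/γ1 replicates 2 and 3, 2 without wild-type replicate 2 or 3). With the replicate number as a block 0 passed there (846 at an unadjusted p under 0.05), while 668 passed between ε/ε and wild-type and 237 between ε/ε and γ1/γ1, where Rgs1 stayed past the threshold at adjusted p of 0.0183 and 0.0331. Same-numbered arrays share only a number, and their deviations from the genotype means correlated at -0.09 to 0.16. Between ε/ε and γ1/γ1 324 passed, against 513 with a covariate for low Xist, 88 with only arrays of high Xist, 56 with the 6 arrays and 122 to 330 with an array left out (196 without ε/ε replicate 1, 122 to 160 without a γ1/γ1 array and 167 to 213 without a wild-type one). For any difference among the genotypes 500 passed, against 190 with only arrays of high Xist and 173 to 399 with an array left out (231 and 302 without ε/ε replicates 1 and 3, 324 without γ1/γ1 replicate 2, and 173 to 293 without a wild-type array). Of the alternatives added after seeing the data, leaving out ε/ε replicate 1 with no filter gave 333 between ε/ε and wild-type, 122 between ε/ε and γ1/γ1 and 119 for any difference. With no filter and the 6 arrays of high Xist and low Eif2s3y the counts were 26, 1 and 0, and 0 between γ1/γ1 and wild-type (3462, 2933, 2936 and 1444 at an unadjusted p under 0.05), and Rgs1 passed in neither ε/ε contrast. The causes were not tested. Quantile normalization made 57.8% of the calls between ε/ε and wild-type higher, against 36.7% as deposited, and 53.4% against 38.3% between ε/ε and γ1/γ1. Median centring gave 45.6% and 54.5%.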

Other observations

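Cell types other than follicular B cells were looked for on the same arrays by their markers. In ε/ε over wild-type, 0 of 13 macrophage markers tested passed in limma and 6 had an unadjusted p under 0.05. Of all genes tested, 24.8% had one in this contrast, a lower share. The median difference of these 13 was 1.00, with C1qb and C1qa, parts of complement C1q, at 2.39 (adjusted p = 0.0505) and 1.22 (adjusted p = 0.0509). Hmox1 was at 2.91 (adjusted p = 0.0575), Spic at 2.19 (adjusted p = 0.0879) and Marco at -0.20. Csf1r, Mrc1 and Slc40a1 did not meet the filter and were not tested, though they read 7.25, 7.23 and 6.67 in ε/ε replicate 1. Over γ1/γ1 1 passed, Timd4, at 0.89 (adjusted p = 0.0332), which was above the array median on the 3 ε/ε arrays alone and so was tested through the group where it was high. Of T and NK cell markers 0 of 5 tested passed between ε/ε and wild-type and 0 had an unadjusted p under 0.05, with Bcl11b at 0.34 and Nkg7 at 0.19. Of neutrophil and monocyte markers 0 of 2 passed and 0 had such a p, with Mpo at -0.19 and Cx3cr1 at -0.06. Of dendritic cell markers 0 of 5 passed and 1 had such a p, with Flt3 at 0.75 (adjusted p = 0.0530) and Zbtb46 at 0.25. Of plasma cell markers 0 of 8 passed and 3 had such a p, with Xbp1 at 0.96 (adjusted p = 0.0559) and Derl3 at 0.45 (adjusted p = 0.0894). Fkbp11, Sdc1 and Ell2 of the same list went the other way, at -0.66, -0.33 and -0.20. Of germinal centre markers Fas was at 0.62, Mki67 at 0.73, Neil1 at 0.45 and Basp1 at 0.39. Rgs13, Bcl6 and S1pr2 of that list went the other way, at -0.59, -0.35 and -0.01. Of platelet markers Itga2b was at 0.26 and Gp9 at 0.14. Of 13 B cell markers 2 rose, Pou2af1 by 1.62 (adjusted p = 0.00976) and Spib by 1.54 (adjusted p = 0.0253), where 2.33% of all genes were called higher. Blk alone was lower, at -0.60 (adjusted p = 0.0890). In γ1/γ1, Pou2af1 and Spib were also higher than in wild-type, by 1.16 and 0.62, without passing (adjusted p = 0.364 and 0.758). B cells also express some markers of these lists, such as Irf8 and Xbp1.

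Equal readings across arrays were frequent. Of the 41345 probe sets, 18973 had at least 2 arrays with the same value to every deposited digit and 5121 had at least 4. In 18013 the median of the 9 arrays was held by at least 2 arrays, the pattern seen in Rgs2, Rgs3, Rgs13, Rgs14 and Rgs16. What produced the equal values was not tested.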
